A study of Mus musculus with 6 samples.

Results

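The genes described here are the heat shock protein and endoplasmic reticulum (ER) chaperone genes of mouse lung endothelial cells (ECs), 82 of the 24063 gene symbols counted. They were chosen by symbol alone, as the Hspa, Hspb, Hsp90, Hspd1, Hspe1, Hsph1 and DnaJ genes, the protein disulfide isomerases, Calr, Canx and Hyou1, together with Xbp1, Ddit3 and Ern1, which signal ER stress. By the known place of their proteins, 45 belong to the cytosol and nucleus, 22 to the ER, 9 to the mitochondrion and 3 to ER stress signalling, and 3 DnaJ genes were left unplaced. The study asked how the lung vasculature regrows once 1 lung has been removed by surgery (pneumonectomy, PNX), and compared ECs 7 days after PNX with ECs of sham-operated mice by bulk RNA sequencing. All mice were male C57BL6 with no engineered allele, 8 weeks old by the sample labels, whereas the methods give an older age. ECs were taken from the lungs with magnetic beads against CD31, the EC surface protein PECAM1, and RNA of 2 mice was pooled for each of the 3 libraries of a group. In both groups, replicates 1 and 2 are labelled as re-used from an earlier deposit, and replicate 3 came with the later one.

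Chaperones hold unfolded proteins and help them to fold. In the cytosol, the HSP70 proteins bind exposed stretches of a protein in cycles driven by ATP, DnaJ (HSP40) proteins bring substrates to them, HSP110 proteins exchange the nucleotide, HSP90 proteins finish the folding of kinases and receptors, and small heat shock proteins hold aggregating proteins without ATP. Heat and other proteotoxic stress induce many of these genes through the transcription factor HSF1. Secreted and membrane proteins fold in the ER, with the HSP70 protein BiP (Hspa5), the HSP90 protein GRP94 (Hsp90b1), the lectins calreticulin and calnexin, and disulfide isomerases. When the ER is overloaded, the sensors IRE1 (Ern1), PERK and ATF6 start the unfolded protein response (UPR), in which IRE1 splices the Xbp1 mRNA, PERK raises ATF4 and CHOP (Ddit3), and the activated factors induce ER chaperones and the degradation machinery.

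Library totals ranged from 29526989 to 81282871 counts, lowest in replicate 3 of each group. Replicates 1 and 2 of a group lay close to counting error, with a chi-square per degree of freedom of 1.75 in sham and 1.57 in PNX, against 67.9 to 86.4 for pairs with replicate 3. They were summed to 1 sample, which left 2 samples per group and 4 in all, with the deposit as a term of the edgeR quasi-likelihood fit. The methods describe each replicate as a pool of 2 mice. With the deposit as a term, the p-values rest on how far the difference between PNX and sham varied between the 2 deposits. That leaves 1 residual degree of freedom, with the variation estimated partly across genes. They do not measure the spread between mice or the whole spread between samples. All 12 endothelial marker genes were detected, with a summed level of 11177 to 16052 CPM (counts scaled to a common library size, with TMM normalization), as the EC label has it. Markers of other lung cells were present too, such as club and alveolar type 2 genes at 7280 to 9589 CPM in sham and 2991 to 4260 CPM in PNX.

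The 82 genes took 1.16%, 1.17% and 0.907% of all counts in sham replicates 1 to 3 and 1.35%, 1.37% and 0.995% in the PNX replicates. Both replicate 3 libraries were below every library of the earlier deposit, so the groups overlapped, and PNX was above sham within each deposit. Per transcript length, Hspa8, the constitutive cytosolic HSP70, was the highest in sham, with a transcript level of 1232, 1231 and 869 TPM (counts per length, scaled to a common total), next to Hsp90ab1, the constitutive cytosolic HSP90, at 1086, 1102 and 798 TPM. Calr, Hspa1b, Hsp90b1, Hspb1 and Hspa5 followed with sham means between 493 and 552 TPM, differences smaller than the spread between their sham libraries. At the other end, Hspb3 had no count in any library, and Dnajb7, Dnajb8 and Dnajc22 had at most 10 counts. These 4 genes did not pass the filter on low counts, so 78 genes were tested.

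The thresholds of the study were an adjusted p below 0.01 with a log2 fold change of more than 1 in either direction. By these, 0 of the 78 tested chaperone genes differed between PNX and sham, where 5.12% of all 16598 genes tested were called. DESeq2 and limma-voom also called 0 of them, and 31 of the 78 had an unadjusted p under 0.05, next to 35.6% of all genes tested. At an adjusted p under 0.05 with no minimum fold, 12 were higher and 3 lower in PNX, next to 11.5% and 10.1% of all genes tested, or 21.6% in both directions. As a whole the chaperone genes were thus called about as often as other genes.

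In the ER, 9 of 22 genes were higher in PNX and 0 lower, by log2 fold changes of 0.29 to 0.57. They were the disulfide isomerases Pdia4, Pdia6, P4hb and Pdia3, the ER members of the HSP70 and HSP90 families Hspa5, Hsp90b1 and Hyou1, and the J-proteins Dnajc10 and Dnajb11. The median log2 fold change of the ER genes was 0.21, against 0.03 for the 42 cytosolic genes tested, 0.10 for the 9 mitochondrial genes and -0.01 for all genes tested. Within the earlier deposit the ER median was 0.22, and within the later one 0.23, while the cytosolic median was 0.025 and -0.045. The classes within the ER were less even. From the earlier to the later deposit the median went from 0.47 to 0.30 for the 8 lectins and disulfide isomerases. It went from 0.40 to 0.30 for the 4 members of the HSP70 and HSP90 families, and from -0.04 to 0.02 for the 10 J-proteins. In bulk RNA, a changed number of cells of a type and a changed amount of RNA per cell cannot be told apart, in either direction. Without the deposit as a term, 0 of the 16598 genes reached an adjusted p under 0.05, and 2076 of them had an unadjusted p below 0.05. P4hb then had the lowest adjusted p of the chaperone genes, 0.256.

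**Figure D1:**
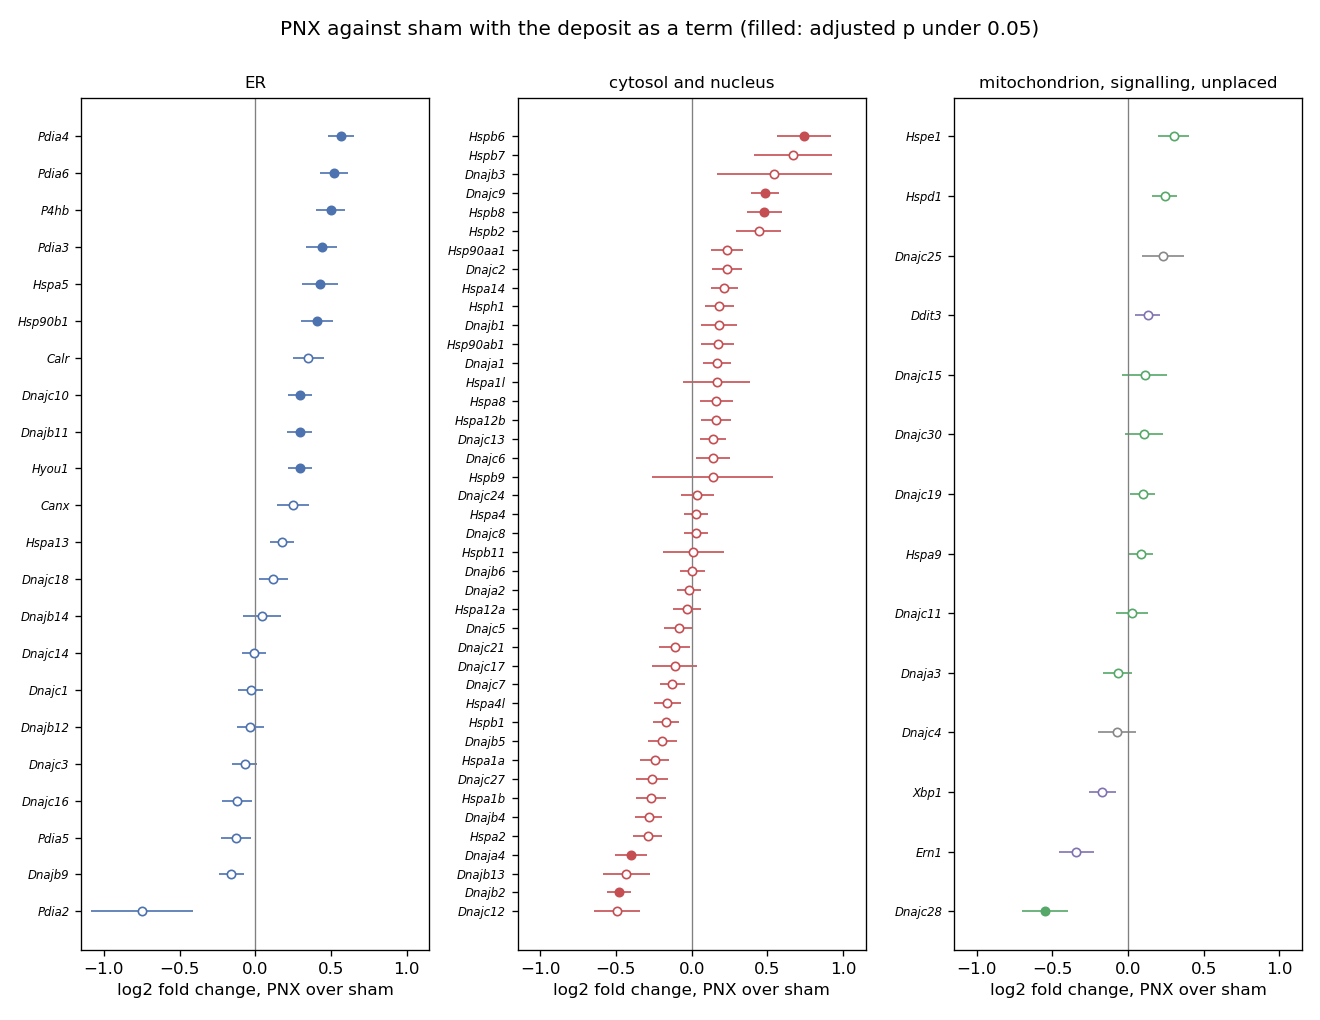
Log2 fold change of PNX over sham for the 78 tested genes, by compartment, with the standard error as a bar and edgeR's adjusted p under 0.05 as a filled symbol. In the ER panel 9 symbols are filled and all lie to the right of 0, whereas the cytosolic panel has 3 filled symbols to the right and 2 to the left.

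The disulfide isomerases form and rearrange disulfide bonds in proteins that enter the ER. Pdia4 (ERp72) was at 91.9, 91.7 and 73.2 CPM in sham and at 141, 148 and 102 CPM in PNX. All 3 PNX libraries were above all 3 sham libraries, and the log2 fold change was 0.57 ± 0.08 (SE, 4 samples; edgeR adjusted p = 0.00407). Pdia6 (P5) was at 171, 172 and 122 CPM in sham and at 265, 264 and 163 CPM in PNX. Its replicate 3 in PNX was below the earlier sham libraries, so the groups overlapped, although within each deposit PNX was the higher (log2 fold change 0.52 ± 0.09, adjusted p = 0.00815).

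P4hb, the classical protein disulfide isomerase and also the beta subunit of collagen prolyl 4-hydroxylase, was the most even of the group. It was at 347, 354 and 341 CPM in sham and at 491, 497 and 483 CPM in PNX, with no overlap and a difference between deposits of only -0.04 ± 0.09 on the log2 scale. Its log2 fold change was 0.50 ± 0.09 (adjusted p = 0.0105), and within the earlier and the later deposit alone it was 0.50 and 0.50. Pdia3 (ERp57), which works with calreticulin and calnexin on glycoproteins, was at 410, 409 and 335 CPM in sham and at 584, 590 and 429 CPM in PNX, with a log2 fold change of 0.44 ± 0.10 (adjusted p = 0.0212) and no overlap. Of the other disulfide isomerases, Pdia5 was at 27.3, 27.4 and 16.2 CPM in sham and at 23.7, 23.3 and 16.0 CPM in PNX (log2 fold change -0.13 ± 0.10, adjusted p = 0.404). Pdia2, named after its values were seen, was near the lower limit of the measurement, at 0.564 to 0.676 CPM in sham and 0.272 to 0.406 CPM in PNX (log2 fold change -0.75 ± 0.34, adjusted p = 0.16).

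Hspa5 encodes BiP, which binds nascent chains in the ER and holds the UPR sensors inactive. It was at 1075, 1078 and 932 CPM in sham and at 1538, 1563 and 1170 CPM in PNX, with every PNX library above every sham library. The log2 fold change was 0.43 ± 0.12 (adjusted p = 0.0404), 0.53 within the earlier deposit and 0.33 within the later. Its 2 transcripts carried nearly the same counts, so the summed CPM counts most reads of the gene on both. Hsp90b1, which encodes GRP94, a chaperone of integrins and Toll-like receptors, was at 599, 602 and 453 CPM in sham and at 843, 866 and 562 CPM in PNX. Its later PNX library lay below the earlier sham libraries, and the log2 fold change with the deposit as a term was 0.41 ± 0.11 (adjusted p = 0.0346).

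Hyou1 (GRP170), the nucleotide exchange factor of BiP, was at 97.1, 96.9 and 77.6 CPM in sham and at 118, 121 and 94.6 CPM in PNX (log2 fold change 0.29 ± 0.08, adjusted p = 0.0367). The groups overlapped by the later PNX library alone. Calr and Canx encode calreticulin and calnexin, the soluble and the membrane lectin that hold glycoproteins until they are folded. Calr was at 449, 461 and 372 CPM in sham and at 613, 631 and 442 CPM in PNX, and its log2 fold change of 0.35 ± 0.10 just missed the threshold (adjusted p = 0.0511). Canx was at 866, 843 and 674 CPM in sham and at 1012, 1027 and 799 CPM in PNX, a log2 fold change of 0.25 ± 0.10 that did not pass (adjusted p = 0.137). Its 3 transcripts had identical counts in every library.

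**Figure D2:**
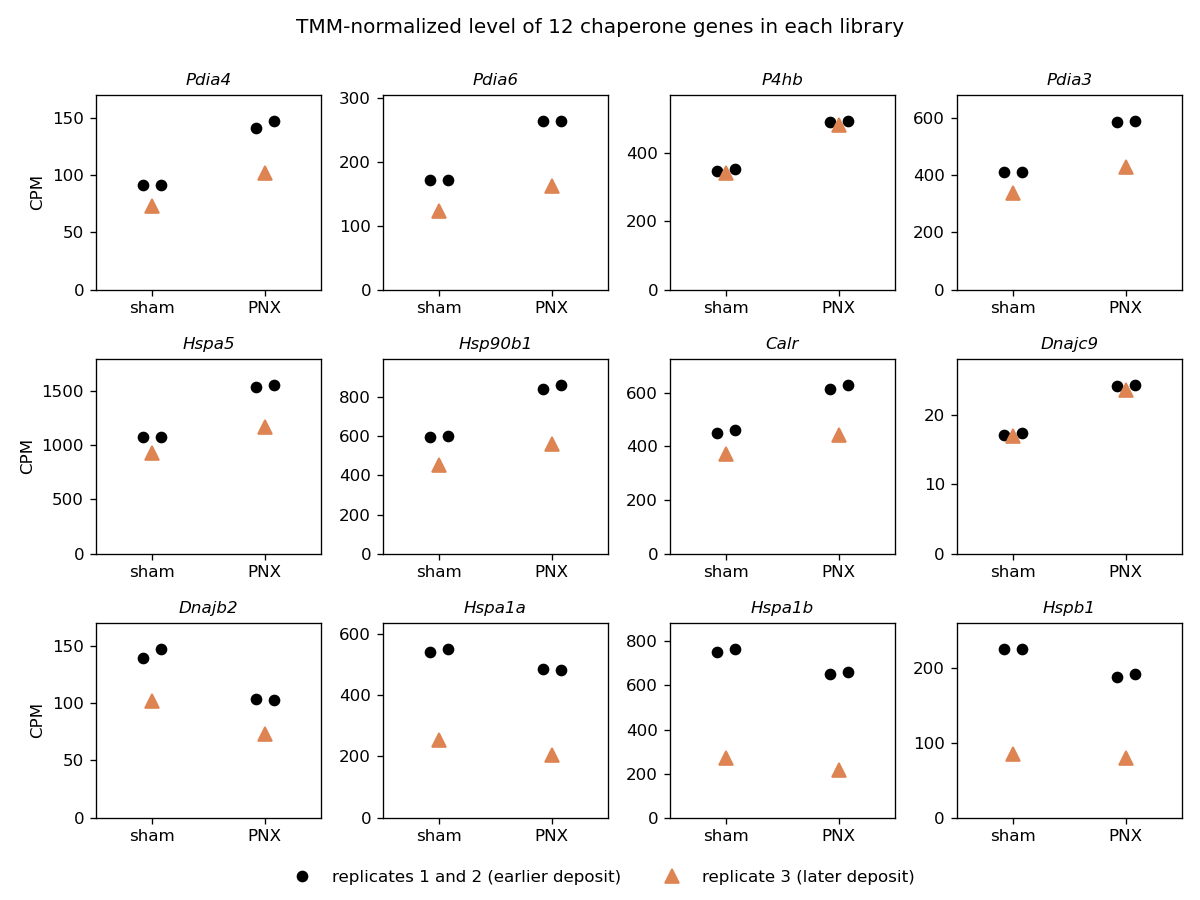
Level in CPM (linear axis from 0) of 12 genes in each library, for sham and PNX, with circles for replicates 1 and 2 of the earlier deposit and triangles for replicate 3 of the later one. P4hb and Dnajc9 are alike in both deposits and higher in PNX, whereas Hspa1a, Hspa1b and Hspb1 differ mainly between circles and triangles, as for Hspa1b from 752 and 768 to 269 CPM in sham.

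Of the 10 ER J-proteins, 2 were higher in PNX and 0 lower, next to 11.5% and 10.1% of all genes tested. Their median log2 fold change was -0.02, with 4 above 0, next to 48.2% of all genes tested. The median was 0.35 for the 4 ER members of the HSP70 and HSP90 families. For the 8 lectins and disulfide isomerases it was 0.39. Dnajc10 (ERdj5), a disulfide reductase that works with BiP in the removal of misfolded proteins, was at 82.1, 81.8 and 78.0 CPM in sham and at 101, 96.5 and 97.8 CPM in PNX. The groups did not overlap, and the log2 fold change was 0.30 ± 0.08 (adjusted p = 0.0363). Dnajb11 (ERdj3), which hands nascent chains to BiP, was at 195, 201 and 146 CPM in sham and at 237, 242 and 181 CPM in PNX (log2 fold change 0.29 ± 0.08, adjusted p = 0.0457), and only the later PNX library lay within the sham range.

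Dnajb9 (ERdj4) and Dnajc3 (p58IPK), also J-proteins of the ER, did not pass the test. Dnajb9 was at 63.2, 57.7 and 40.5 CPM in sham and at 53.8, 56.5 and 35.7 CPM in PNX (log2 fold change -0.16 ± 0.08, adjusted p = 0.215). Dnajc3 was at 177, 174 and 120 CPM in sham and at 170, 168 and 114 CPM in PNX (-0.07 ± 0.08, adjusted p = 0.586). Both were slightly lower in PNX within each deposit, by -0.14 and -0.18 for Dnajb9 and by -0.06 and -0.08 for Dnajc3.

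Over all compartments, 13 genes had all 3 PNX libraries above all 3 sham libraries and 7 had them below, next to 18.6% and 18% of all genes tested. Of the 13, 5 were among the 22 ER genes, namely Pdia4, P4hb, Pdia3, Hspa5 and Dnajc10, not far from the 18.6% of all genes. Replicates 1 and 2 were counted separately here, although they lay close to counting error.

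The ER chaperone genes are known to share a promoter element, the ER stress response element (ERSE), at which NF-Y binds CCAAT and ATF6 or XBP1 binds CCACG. The letters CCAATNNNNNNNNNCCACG were searched on both strands in RefSeq promoter windows (GRCm38.p6, 250 bases before to 50 after a gene's start), which hold 68 of the 82 genes. Of the 19 ER genes in the table, 6 had a match, Calr, Canx, Dnajc3, Hsp90b1, Hspa5 and Pdia6, against 0 of 38 cytosolic genes and 0.137% of all 27025 genes in the table. Of these 6 genes, 3 were higher in PNX, Hsp90b1, Hspa5 and Pdia6, next to 9 of all 22 ER genes and 11.5% of all genes tested. Calr, Canx and Dnajc3 have the match and were not called. The second form of the element, ERSE-II (ATTGG and CCACG with 1 base between them), was found in Dnajb11 alone of the 68 genes, after its start, and in 0.0444% of all genes. The windows of Hyou1 and of Hspa8, Hsp90aa1 and Hsp90ab1 were not in the table used here, and a match is a description of the letters, not of a bound site.

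The stretches around the matches are shown because the genes differ in their position and number. Only exact matches to the letters were counted, so copies of the element that depart from them would be missed. Capitals mark the matched letters on the strand of the gene, and positions count from -1 at the base before the start. In Hspa5 the match lies at -65 to -47 (stretch chr2:34772020-34772048, plus strand), where a further annotated transcript of the gene already starts upstream. In Pdia6 it lies at -98 to -80 (chr12:17266471-17266529, plus strand). Hsp90b1 has 2 matches, at -212 to -194 and, on the opposite strand, at -107 to -89 (chr10:86705513-86705676, minus strand). In Calr the match at -162 to -144 is on the opposite strand, so it reads CGTGG first (chr8:84847055-84847113, minus strand). In Canx it lies at -145 to -127 (chr11:50325780-50325838, minus strand), and in Dnajc3 at -105 to -87 (chr14:118937807-118937865, plus strand).
Hspa5: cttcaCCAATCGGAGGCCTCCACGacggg
Pdia6: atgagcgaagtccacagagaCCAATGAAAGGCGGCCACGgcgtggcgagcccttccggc
Hsp90b1: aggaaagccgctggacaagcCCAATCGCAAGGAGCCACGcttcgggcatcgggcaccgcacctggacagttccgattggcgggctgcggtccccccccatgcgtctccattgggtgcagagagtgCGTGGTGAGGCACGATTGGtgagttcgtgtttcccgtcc
Calr: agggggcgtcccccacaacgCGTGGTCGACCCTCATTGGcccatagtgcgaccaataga
Canx: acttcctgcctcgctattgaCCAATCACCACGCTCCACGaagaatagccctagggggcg
Dnajc3: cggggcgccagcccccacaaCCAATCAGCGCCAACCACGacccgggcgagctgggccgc

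The 3 signalling genes did not pass the test. Xbp1 was at 335, 337 and 261 CPM in sham and at 303, 306 and 227 CPM in PNX, a log2 fold change of -0.17 ± 0.09 (adjusted p = 0.216). Its 2 RefSeq transcripts had identical counts in every library, so the spliced and the unspliced mRNA could not be separated. Ern1, the gene of IRE1, was at 28.9, 28.7 and 32.3 CPM in sham and at 20.4, 19.1 and 29.6 CPM in PNX (-0.34 ± 0.12, adjusted p = 0.0787), with PNX lower by -0.54 within the earlier deposit and by -0.12 within the later. Ddit3, the gene of the proapoptotic factor CHOP, was at 26.4, 28.8 and 35.8 CPM in sham and at 29.9, 29.3 and 39.9 CPM in PNX (0.13 ± 0.08, adjusted p = 0.317).

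Other genes of the same pathways were taken from lists. In this fit 11.5% of all genes tested were higher in PNX and 10.1% lower. Of 24 further ER folding genes, 10 were higher in PNX and 0 lower, with a median log2 fold change of 0.24. Among them were Fkbp10 (1.11 ± 0.08, adjusted p = 0.000145) and Serpinh1 (0.99 ± 0.12, adjusted p = 0.00198), which fold procollagen, and the cofactors of BiP Sdf2l1 (0.87 ± 0.11, adjusted p = 0.00247) and Manf (0.48 ± 0.09, adjusted p = 0.00921). Of 20 genes of ER-associated degradation and translocation, 5 were higher, Vcp, Sec61a1, Sec61b, Sec61g and Edem1, by 0.29 to 0.39. Another 1 was lower, Herpud1, which organizes the degradation complex (-0.40 ± 0.09, adjusted p = 0.0191).

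Of 13 UPR sensors and transcription factors, 2 were higher and 1 lower, near the 11.5% and 10.1% of all genes tested. Creb3l1 (OASIS), an ER-bound transcription factor of collagen-secreting cells, was at 6.67, 6.33 and 11.7 CPM in sham and at 14.1, 13.7 and 22.5 CPM in PNX (log2 fold change 1.02 ± 0.11, adjusted p = 0.000937). Atf4, the effector of PERK, was at 411, 415 and 439 CPM in sham and at 332, 329 and 338 CPM in PNX (-0.35 ± 0.09, adjusted p = 0.0372). Eif2s1, the translation initiation subunit that PERK phosphorylates, was the second that was higher (0.40 ± 0.09, adjusted p = 0.0189).

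Of 14 targets of ATF4 and CHOP, 2 were higher and 2 lower, near the 11.5% and 10.1% of all genes tested. The higher ones, Psat1 (1.80 ± 0.09, adjusted p = 2.7e-05) and Phgdh (0.43 ± 0.11, adjusted p = 0.0287), are enzymes of serine synthesis. The lower ones were Ddit4, an inhibitor of mTORC1 (-0.54 ± 0.09, adjusted p = 0.00666), and Slc3a2, an amino acid transporter subunit (-0.33 ± 0.09, adjusted p = 0.0441). Trib3 and Atf3, induced by this branch under ER stress, had log2 fold changes of 0.10 ± 0.16 and 0.05 ± 0.09 that did not pass (adjusted p = 0.685 and 0.764).

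**Figure D3:**
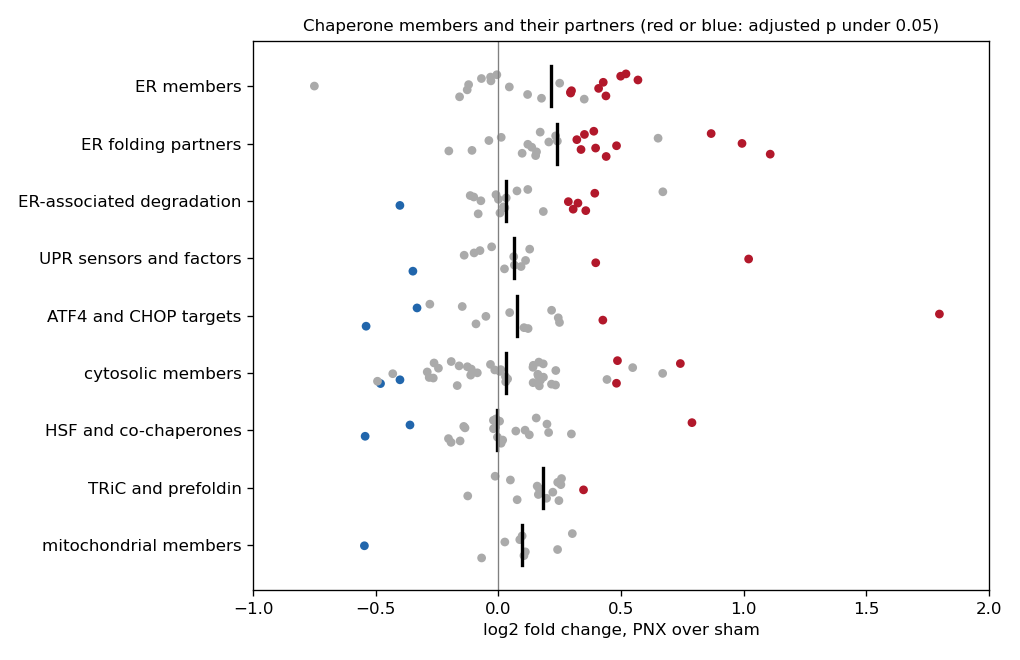
Log2 fold change of PNX over sham for the tested genes of 9 lists, each point a gene, red where higher and blue where lower at edgeR's adjusted p under 0.05, with the list's median as a black bar. The ER genes and the ER folding partners have medians of 0.21 and 0.24 and no blue point, while the cytosolic genes have 3 red and 2 blue points around a median of 0.03.

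Markers of other cells moved with the groups. Of 10 fibroblast and matrix markers, 8 were higher and 1 lower in PNX, and their summed level was 3729 to 6317 CPM in sham and 15261 to 20865 CPM in PNX, of which Fn1 made up 11791 to 15860 CPM. Of 9 macrophage markers, 8 were higher, with a summed level of 2325 to 4203 CPM in sham and 3122 to 4215 CPM in PNX. Most of that sum was Lyz2, the marker that did not pass, at 1997 to 3511 CPM in sham and 2258 to 3074 CPM in PNX, while C1qa, C1qb, C1qc, Marco and Cd163 had log2 fold changes of 2.36 to 2.63. All 12 cell division genes were higher, from 81.7 to 145 CPM in sham to 709 to 1071 CPM in PNX. Of 12 endothelial markers, 3 were lower (Ptprb, Tek and Eng) and 0 higher, and all 10 ciliated and all 8 club and alveolar type 2 markers were lower. Their part in the ER result was not tested. Of 9 plasma cell markers, a cell type rich in ER chaperones, 0 were higher and 1 lower, and their summed level was 109 to 158 CPM in sham and 109 to 126 CPM in PNX. Within that list Igj, the joining chain of secreted antibodies, was at 0.965, 0.634 and 39.2 CPM in sham and at 9.13, 9.65 and 33.5 CPM in PNX, higher in PNX within the earlier deposit and lower within the later (log2 fold change 1.41 ± 0.75, adjusted p = 0.226). Tnfrsf17, the receptor BCMA, was at 0.38 CPM or below.

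In the cytosol, 3 of 42 tested genes were higher in PNX and 2 lower, a smaller share than the 11.5% and 10.1% of all genes tested. Of the higher ones, 2 were small heat shock proteins of low level. Hspb6 (HSP20), a protein of smooth and cardiac muscle, was at 2.71, 2.83 and 5.38 CPM in sham and at 5.34, 5.58 and 7.41 CPM in PNX, with the later sham library within the PNX range (log2 fold change 0.74 ± 0.18, adjusted p = 0.0251). Hspb8 (HSP22), the partner of BAG3 in selective autophagy, was at 25.7, 24.9 and 19.0 CPM in sham and at 31.2, 30.5 and 30.8 CPM in PNX, with no overlap (0.48 ± 0.12, adjusted p = 0.027). Of 11 muscle genes tested, 1 was higher, Tnnt2, and their summed level was 119 to 158 CPM in sham and 95.0 to 137 CPM in PNX.

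The third was Dnajc9, a J-protein that escorts histones H3 and H4. It was at 17.1, 17.3 and 17.0 CPM in sham and at 24.2, 24.4 and 23.5 CPM in PNX, and the spread within a group was far smaller than the difference (log2 fold change 0.49 ± 0.09, adjusted p = 0.0108). Dnajb2 (HSJ1), a J-protein with ubiquitin-binding motifs, was at 139, 148 and 102 CPM in sham and at 104, 103 and 72.9 CPM in PNX. The difference was of like size within the earlier deposit (-0.47) and the later (-0.49), and the log2 fold change was -0.48 ± 0.08 (adjusted p = 0.00598). Of its 5 transcripts, 4 carried nearly the same counts, 8011 to 8067 over the 6 libraries, and the other carried 9699. Dnaja4, an HSP70 cofactor, was at 30.3, 29.6 and 22.8 CPM in sham and at 24.9, 25.2 and 15.4 CPM in PNX (-0.40 ± 0.11, adjusted p = 0.0375). It passed in only 6 of 13 alternative fits with the deposit as a term, and DESeq2 called 1 lower chaperone gene in place of 3.

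The inducible HSP70 genes did not pass the test between PNX and sham. Hspa1a was at 541, 551 and 253 CPM in sham and at 484, 483 and 203 CPM in PNX, and Hspa1b at 752, 768 and 269 CPM in sham and at 652, 660 and 216 CPM in PNX. Their log2 fold changes were -0.24 ± 0.10 (adjusted p = 0.115) and -0.27 ± 0.10 (adjusted p = 0.0987). Hspb1 (HSP27), the small heat shock protein that binds actin, was at 226, 227 and 84.6 CPM in sham and at 189, 192 and 79.9 CPM in PNX (-0.17 ± 0.09, adjusted p = 0.215). For all 3 genes the deposits lay farther apart than the groups. Within each deposit every PNX library was below every sham library. The log2 ratios within the earlier and the later deposit were -0.17 and -0.32 for Hspa1a, -0.21 and -0.32 for Hspa1b, and -0.25 and -0.08 for Hspb1.

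The constitutive cytosolic chaperones also did not pass the test. Hspa8 was at 1034, 1033 and 726 CPM in sham and at 1107, 1125 and 842 CPM in PNX (log2 fold change 0.16 ± 0.11, adjusted p = 0.33), and Hsp90ab1 had a log2 fold change of 0.17 ± 0.11 (adjusted p = 0.304). The inducible HSP90 gene Hsp90aa1 was at 282, 284 and 218 CPM in sham and at 366, 379 and 228 CPM in PNX (0.23 ± 0.11, adjusted p = 0.168), a difference of 0.40 within the earlier deposit and of 0.07 within the later. Hsph1 (HSP110) and the J-proteins Dnajb1 and Dnaja1 had log2 fold changes of 0.18 ± 0.09, 0.18 ± 0.12 and 0.17 ± 0.09, with adjusted p of 0.212, 0.316 and 0.25. For Dnajb1, the cofactor of HSP70 in disaggregation, the sign turned between deposits, from 0.41 within the earlier one to -0.06 within the later. Another 3 genes were among the largest values without passing. Hspb7, a small heat shock protein of muscle, had a log2 fold change of 0.67 ± 0.26 (adjusted p = 0.11), Dnajc12, a cofactor of aromatic amino acid hydroxylases, of -0.49 ± 0.15 (adjusted p = 0.0554), and Dnajb13, a gene of sperm and cilia, of -0.43 ± 0.16 (adjusted p = 0.0946).

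The partners of the cytosolic chaperones were counted in the same fit, where 11.5% of all genes tested were higher in PNX and 10.1% lower. Of 23 heat shock factor and co-chaperone genes, 1 was higher in PNX, Fkbp5, the glucocorticoid-induced HSP90 cofactor (0.79 ± 0.09, adjusted p = 0.00127), and 2 were lower, Hsf4 (-0.54 ± 0.15, adjusted p = 0.0388) and Bag5 (-0.36 ± 0.10, adjusted p = 0.0368). Hsf1 itself had a log2 fold change of -0.19 ± 0.11 that did not pass (adjusted p = 0.238). Of 14 subunits of the chaperonin TRiC and of prefoldin, which fold actin and tubulin, 1 was higher, Tcp1 (0.35 ± 0.09, adjusted p = 0.0281), with 12 of 14 above 0 and a median of 0.18.

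The difference between deposits was tested in the same fit. At the thresholds of the study, 3 chaperone genes were lower in the later deposit, where 0.693% of all genes were, and 1 was higher, where 2.62% were. The lower ones were Hspa1b, Hspb1 and Hspa1a, with log2 differences of -1.55 ± 0.10, -1.34 ± 0.09 and -1.18 ± 0.10 (edgeR adjusted p = 0.000531, 0.000531 and 0.000679). The higher one was Dnajc6 (auxilin), which with HSP70 uncoats clathrin vesicles, at 6.14, 6.23 and 13.9 CPM in sham and at 6.29, 7.91 and 14.7 CPM in PNX (1.11 ± 0.12, adjusted p = 0.0013).

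At an adjusted p under 0.05, 32 of the 78 genes were lower in the later deposit, next to 11.8% of all genes, and 3 were higher, next to 14.5%. The 32 comprised 16 cytosolic, 13 ER, 2 mitochondrial genes and Xbp1, and the 3 were Dnajc6, Hspb6 and Ddit3. The median log2 difference of the 78 genes was -0.29, and that of all genes tested was 0.00. Of the 23 heat shock factor and co-chaperone genes, 11 were lower in the later deposit and 0 higher, with a median of -0.30, among them the small heat shock protein gene Cryab (-0.70, adjusted p = 0.00194). Of 14 immediate-early genes, which are induced within minutes of a stimulus, 3 were lower and 2 higher, with a median of -0.16. Cell markers also differed between the deposits in this fit, at an adjusted p under 0.05. In the later one 12 of 12 cell division genes, 8 of 9 macrophage and 5 of 9 plasma cell markers were higher. Of 10 fibroblast and matrix markers, 6 were higher and 2 lower. Of the plasma cell markers 1 was lower, and of 12 endothelial markers 2 were lower and 0 higher. Their part in the chaperone difference was not tested. What else differed between the deposits is not given in the sources used here, and each deposit holds both groups.

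**Figure D4:**
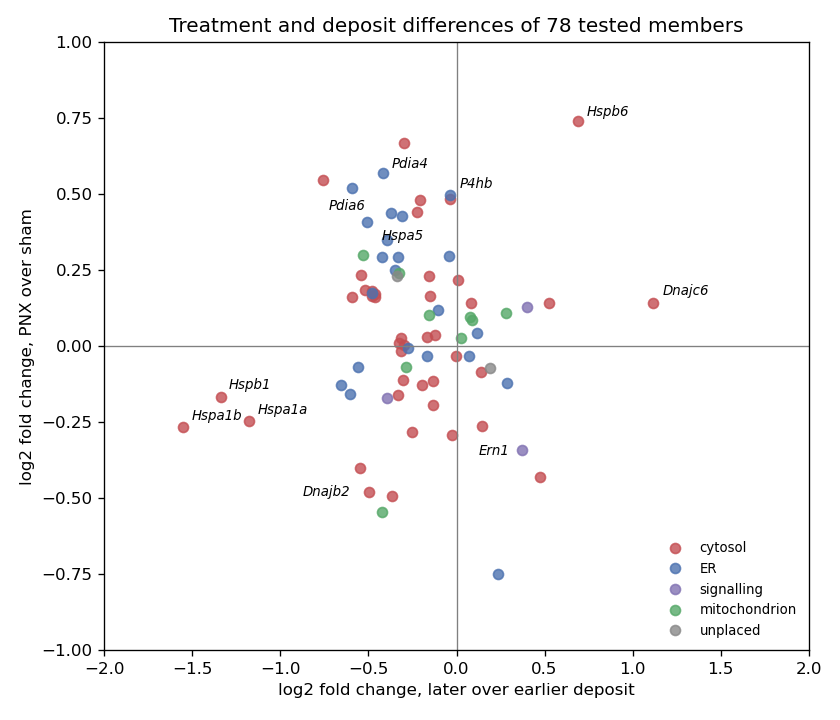
Log2 fold change of PNX over sham against that of the later over the earlier deposit for the 78 tested genes, coloured by compartment. Most points lie left of 0, with a median of -0.29, and Hspa1b, Hspb1 and Hspa1a lie farthest left, while the ER genes Pdia4, Pdia6 and Hspa5 lie left of 0 and between 0.43 and 0.57 on the vertical axis, below the cytosolic gene Hspb6 at 0.74.

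Heat shock factors bind inverted repeats of GAA. The full element GAANNTTCNNGAA was found on either strand in the promoter windows of 0.662% of all genes and of 4 chaperone genes, Hspd1, Hspe1, Dnajb6 and Hsph1. All 4 were lower in the later deposit at an adjusted p under 0.05, and 0 of them differed between PNX and sham. The windows of Hspd1 and Hspe1, neighbours read in opposite directions, overlap and hold the same match. The shorter pair GAANNTTC, which the full element contains, was in 9.04% of all genes, in 11 of 38 cytosolic genes and in 0 of 19 ER genes. Of the 12 tested genes with the pair, which include the 4 with the full element, 9 were lower and 1 higher in the later deposit. Over all 78 chaperone genes tested 32 were lower and 3 higher, next to 11.8% and 14.5% of all genes. In PNX 2 of the 12 were higher and 1 lower, next to 11.5% and 10.1% of all genes.

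The stretches of the 3 genes with the strongest deposit difference are shown, with the pair in capitals and positions counted as above. Hspa1a (chr17:34972233-34972280, minus strand) and Hspa1b (chr17:34959315-34959362, minus strand) have 1 pair at -104 to -97, and Hspb1 (chr5:135887782-135887849, plus strand) has 2, at -117 to -110 and -97 to -90.
Hspa1a: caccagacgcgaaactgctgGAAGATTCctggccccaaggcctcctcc
Hspa1b: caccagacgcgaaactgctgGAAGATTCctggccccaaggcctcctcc
Hspb1: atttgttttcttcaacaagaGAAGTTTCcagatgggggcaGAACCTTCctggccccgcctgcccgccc

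The stretches of Hspa1a and Hspa1b are the same letter for letter, and their whole windows differ at 4 of 300 bases. Their transcripts share a run of 638 bases, so reads within it fit both genes and the split of counts between them is uncertain.

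Of the 9 mitochondrial genes, 0 were higher in PNX and 1 lower, next to 11.5% and 10.1% of all genes tested. The lower one was Dnajc28, a little-studied DnaJ-like gene, at 6.33, 6.85 and 4.76 CPM in sham and at 4.26, 4.51 and 3.38 CPM in PNX, with no overlap (log2 fold change -0.55 ± 0.15, adjusted p = 0.0429), a call that held in 5 of 13 alternative fits with the deposit as a term. Hspd1 and Hspe1 encode HSP60 and HSP10, the chaperonin of the matrix and its lid. Hspd1 was at 89.7, 88.7 and 73.9 CPM in sham and at 109, 109 and 84.2 CPM in PNX (0.24 ± 0.08, adjusted p = 0.0737), and Hspe1 at 24.8, 26.7 and 19.7 CPM in sham and at 34.2, 35.2 and 21.8 CPM in PNX (0.30 ± 0.10, adjusted p = 0.0796). Both were higher in PNX within each deposit and missed the threshold. Hspa9 (mortalin), the matrix HSP70 that draws proteins in, had a log2 fold change of 0.09 ± 0.08 (adjusted p = 0.472). Of 8 mitochondrial partner genes, such as the proteases Lonp1 and Clpp, 0 were called in either direction. The 2 tested unplaced genes, Dnajc4 and Dnajc25, also did not pass.

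The rest of the 78 genes, not called and not named, had log2 fold changes within the range of the named ones. This largely follows from naming the highest and lowest values, so it says nothing further about these genes. By the annotation, 43 of the 82 genes overlap another gene, for instance Pdia6 with Atp6v1c2 and Pdia3 with Catsper2 on the other strand. Whether strand was used in counting is not given in the sources used here, so reads of such partners cannot be told apart from theirs.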

How the data were processed

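Bulk RNA of CD31-selected lung ECs from sham-operated and post-PNX mice was measured in 3 libraries each. Per the labels, the authors aligned the reads to mm10 (GRCm38) with STAR. They deposited, for each library, a whole-number count of every RefSeq transcript (33068 transcripts), not normalized, with FPKM and TPM (length-scaled) beside it. Neither the counting rule nor a version or annotation release is given in the sources used here. The deposited TPM values served for levels only, and FPKM was not used.

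Counts were summed per symbol, and replicates 1 and 2 of a group were summed to 1 sample because they lay close to counting error. Each gene was fitted in R 4.3.3 with edgeR 4.0.16 (filterByExpr, TMM scaling, quasi-likelihood F test, Benjamini-Hochberg over all 16598 genes) with the deposit as a term, which is a replicate block with 1 residual degree of freedom. The labels give this pairing, and over the genes tested the deposit difference in sham and that in PNX had a Pearson's r of 0.60, genes not being independent replicates. The standard error is the log2 fold change divided by the square root of F, an approximation. DESeq2 1.42.0, limma 3.58.1 (voom), other scalings and filters, the 6 single libraries and fits without the block or without a replicate were alternatives. The scripts were tested on simulated data. Library totals ranged from 29526989 to 81282871 counts.

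The members, the lists and the rule for named genes were chosen with earlier results of these data known. Named are 29 well-known members, every member called, the top 5 and bottom 5 by log2 fold change of members with a mean of at least 50 counts, and members called between deposits, with Pdia2, Dnajc11 and Hspb11 named after their values were seen. Of the partner and marker lists, only some of the called genes are named. Hsf1, Trib3, Atf3, Cryab, Lyz2, Igj and Tnfrsf17 were named after their values were seen. Gene positions were read from GENCODE vM21 (GRCm38), and promoter windows from RefSeq on GRCm38.p6, which hold 68 of the 82 members. In 75 of 85 member windows the bases after the start lay in a GENCODE transcript of the gene. No protein sequence was used here.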

Additional observations from a re-analysis of the deposited data

Results flagged for a closer look

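Among the tested chaperone genes with a mean of at least 50 counts, 2 moved in opposite directions in the 2 deposits, by at least 0.1 on the log2 scale in each. Dnajc11, a J-protein of the mitochondrial membrane, had a log2 ratio of PNX over sham of -0.11 within the earlier deposit and 0.18 within the later, 0.29 apart (later minus earlier). Hspb11, a protein of the ciliary transport complex, had 0.26 and -0.35, or -0.61 apart, at a level of 2.77 to 4.36 CPM. With 1 sample per group in each deposit, the difference was not tested for either gene.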

How the results depend on the processing

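Over the 39 genes named by rule, 0 of 585 log2 fold changes changed sign under the 15 alternatives with a test, and of 156 values from 1 deposit alone or without replicate 3 of a group, 1 did, that of Dnajb1 in the later deposit (-0.06), while Dnajc11 and Hspb11, named after their values were seen, were not among these genes. In the alternatives with a test, 0 chaperone genes reached the thresholds of the study under any tool. P4hb, Pdia3, Pdia4, Pdia6, Dnajc9 and Dnajb2 were called in all 13 alternatives with the block that gave a test, Hyou1, Dnajc10 and Hspb8 in 12, Hspa5, Hsp90b1 and Hspb6 in 11, Dnajb11 in 10, Dnaja4 in 6 and Dnajc28 in 5. The replicate block decided the counts. With no replicate block, 0 chaperone genes were higher and 0 lower, 0 ER genes were higher, and over all genes 0 passed the study thresholds, 0 were higher and 0 lower. With the 6 libraries as separate replicates and the replicate block, 30 chaperone genes were higher and 19 lower, with 4152 and 4243 over all genes and an ER median of 0.23. With the 6 libraries and no replicate block, 3 were higher and 0 lower, 2 of them ER genes (P4hb and Dnajc10), with 409 genes past the study thresholds, 832 lower over all genes and an ER median of 0.23. The 3 lower chaperone genes were 1 with DESeq2 (1092 lower over all genes), upper-quartile scaling, DESeq2's size factors, no scaling beyond library size or at least 10 counts in every library, and 5 with limma-voom or no filter. The ER median was 0.20 with upper-quartile scaling, 0.22 with library size and 0.22 with the highest transcript. It was 0.22 within the earlier and 0.23 within the later deposit, where the cytosolic median was -0.045. Leaving out a replicate gave 1 to 4 lower chaperone genes, 485 to 863 genes past the study thresholds and an ER median of 0.20 to 0.23. The lowest counts, 1 and 485, came without PNX replicate 1. Without it Dnaja4, Dnajc28, Hsp90b1, Hspa5, Hspb6 and Hspb8 missed the threshold, as did Dnaja4 and Dnajb11 without sham replicate 1, Dnajc28 without sham replicate 2 and Dnajb11 without PNX replicate 2 (edgeR adjusted p 0.0521 to 0.0777), whereas Dnajc12 passed without sham replicate 2 (0.0456) or PNX replicate 2 (0.0455). Without replicate 3 of either group only the earlier deposit held both groups, so no test was made. The cause of these changes was not tested. With 2 samples per group and 1 residual degree of freedom, a gene that missed the threshold is not shown to be unchanged.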
